A study of Mus musculus with 6 samples.

Results

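Core circadian clock genes were examined in group 2 innate lymphoid cells (ILC2s) sorted from the mouse colon. They are 10 genes chosen by symbol for their place in the clock, by a rule that uses no measured value: the activators Arntl and Clock, the repressors Per1, Per2, Per3, Cry1, Cry2 and Ciart, and the REV-ERB genes Nr1d1 and Nr1d2. All 10 were found among the 23268 genes of the deposited table, where Arntl is listed under its other symbol Bmal1. The study sequenced RNA from 2 groups of 3 libraries. C57BL/6 mice aged 6 to 8 weeks drank water (control) or 3% dextran sulfate sodium (DSS), a chemical that injures the colonic epithelium, for 6 days. No transgene or mutant allele is named for either group, and the labels do not say whether a library came from 1 mouse or from pooled mice. P-values therefore measure the spread between these libraries, which may be technical. The sources used here give neither the sort markers nor the time of day at which either group was collected, and transcripts of most of these genes are known to cycle over the day, so a difference in collection time could not be checked.

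The mammalian clock is a transcriptional feedback loop. CLOCK and BMAL1, the protein of Arntl, bind DNA as a pair at E-box sequences and switch on the Per and Cry genes, whose proteins return to block that pair. A second loop runs through the REV-ERB proteins of Nr1d1 and Nr1d2, also E-box targets, which repress Arntl by competing with ROR receptors for their shared binding sequence. In the gut the clock is best known from group 3 innate lymphoid cells, where it bears on cell number and cytokine production and responds to light and feeding.

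Values are FPKM, fragments scaled by gene length and by library depth, so levels can be compared between genes. A fitted change is the DSS mean minus the control mean of log2(FPKM + 1), a scale on which differences of low genes come out too small. The fit was limma's, over the 12187 genes whose mean was 1 FPKM or more, and all 10 clock genes were among them. P-values are Benjamini-Hochberg adjusted over all 12187. The ILC2 markers summed to 2803 to 3075 FPKM in control and 2380 to 2588 in DSS libraries, and all 10 were above 0 in every library. Of these markers 8 had a lower mean in DSS, among them Gata3, at 841 to 885 FPKM in control and 287, 652 and 674 in DSS replicates 1, 2 and 3, and Rora. Ptprc, also among the 8, hardly differed, at 69.3 to 75.0 in control and 69.2 to 72.5 in DSS. The other 2, Il7r and Il17rb, had a higher mean. Il17rb measured 241 to 265 in control and 242, 341 and 339 in DSS replicates 1, 2 and 3. The libraries held 9962415 to 23119390 fragments, fewest in DSS replicate 3. DSS replicate 1 stood apart from the rest by its share of cytosolic ribosomal protein fragments, 12.2% against 5.83% to 8.28%. Both replicates 3 stood apart by olfactory receptor genes, which averaged 0.584 FPKM in control replicate 3 and 0.963 in DSS replicate 3, against 0.0343 to 0.182 in the other 4. Results are therefore also given without these libraries where they change.

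Within the controls the clock genes fell into steps of level. Nr1d1 was the highest at 104 ± 13.6 FPKM (SD, n = 3), above 95.1% of tested genes, and Per1 followed at 98.1 ± 7.44, with overlapping ranges. Nr1d2 (27.1 ± 4.12) and Arntl (25.9 ± 1.28) formed a second pair whose ranges overlapped. Ciart stood alone at 16.8 ± 0.395. Cry1 (6.70 ± 0.980), Cry2 (5.38 ± 1.52) and Per3 (3.57 ± 0.940) overlapped, each with the next. Clock (2.33 ± 0.0903) and Per2 (1.88 ± 0.0982) were the lowest, and their ranges did not overlap. The control libraries thus agreed closely for Clock, Per2, Arntl and Ciart and less closely for the Cry genes and Per3. In the DSS libraries Per1 led instead of Nr1d1, with means of 83.1 ± 39.2 and 50.4 ± 19.1.

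Of the 10 genes, 0 passed limma's threshold, an adjusted p under 0.05, and 0.222% of all tested genes passed it. With voom on recovered fragments the count was 0 as well. At an unadjusted p under 0.05 there were 2, Nr1d1 and Nr1d2, against 8.99% of all tested genes. Nr1d1, Nr1d2 and Arntl were the 3 genes for which every DSS library lay below every control library, a pattern shown by 9.60% of all tested genes. No clock gene had every DSS library above every control library (6.35% of tested genes). The fitted change was below 0 for 8 of 10, against 46.9% of tested genes, with a median of −0.18 against 0.03. That count rested on 1 library: without DSS replicate 1 it was 4 of 10, with a median of 0.04 against 0.12.

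**Figure D1:**
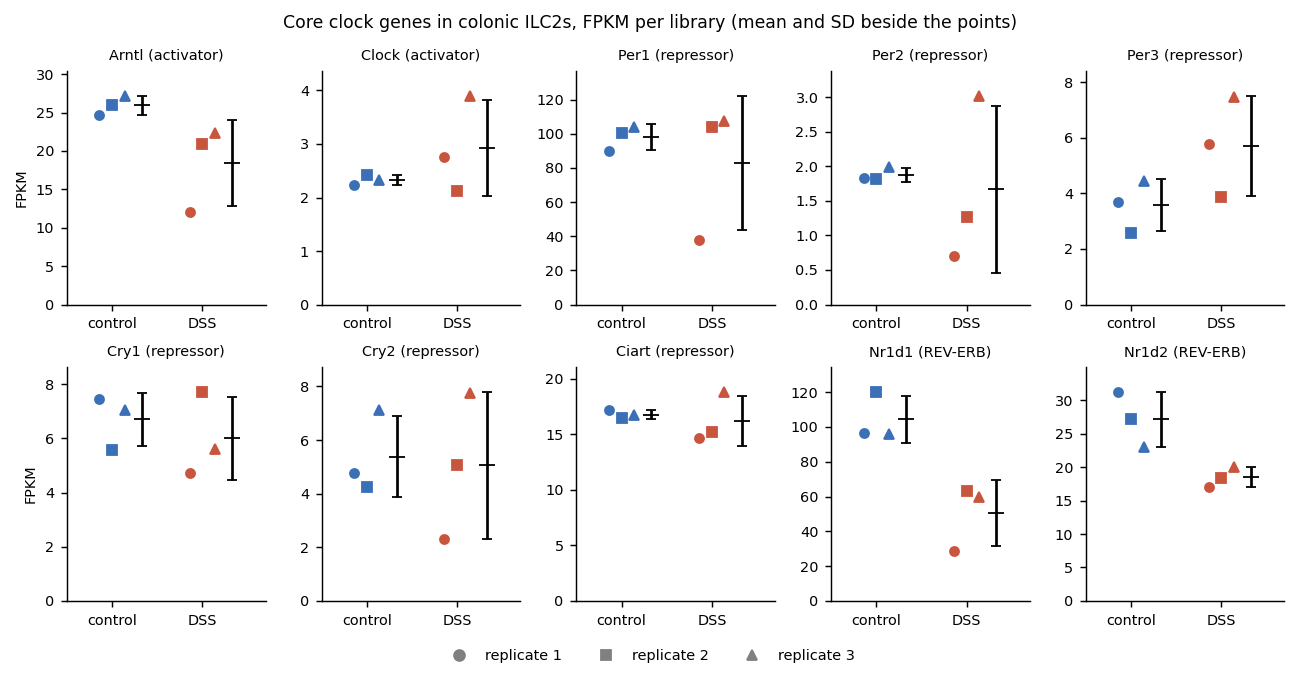
FPKM of each core clock gene (vertical axes, each from 0) in the 3 control and 3 DSS libraries (points, shape by replicate), with the group mean and SD beside them. The groups are separate for Arntl, Nr1d1 and Nr1d2 and overlap for the other 7, and DSS replicate 1 is the lowest library for 8 genes.

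Nr1d1 showed the largest difference of the 10. It encodes REV-ERBα, a nuclear receptor that binds heme and represses Arntl. It measured 96.7, 119.99 and 96.2 FPKM in control replicates 1, 2 and 3 and 28.5, 63.3 and 59.5 in DSS replicates 1, 2 and 3. The groups were far apart, with the highest DSS library well below the lowest control and DSS replicate 1 lowest of all. The mean was 2.07-fold lower in DSS, with a log2 change of −1.11 ± 0.30 SE (95% interval −1.78 to −0.44), a limma p of 4.46e-03 and an adjusted p of 0.217. It missed the threshold in this fit, and its limma adjusted p ran from 0.0159 to 0.821 over the 17 alternatives. Without DSS replicate 1, the library in which it was lowest, the change was smaller, −0.75 ± 0.14 SE, yet passed with a limma adjusted p of 0.0159. In that fit 3.39% of tested genes passed, and Nr1d1 was the only one of the 10 core genes among them. Library weights gave it a limma adjusted p of 0.0169 and a change of −0.86, in a fit where 635 of the 12187 tested genes passed. These values rest on 1161 to 6149 fragments per library.

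Nr1d1 lies on chromosome 11 (mm10, 98767932 to 98775333, minus strand) and meets the 3′ end of Thra, a thyroid hormone receptor gene on the other strand. Their exons share 263 bp, or 8.55% of the exonic bases of Nr1d1. The libraries do not mark strand, so fragments in those bases cannot be told apart. Thra itself measured 4.99 to 7.89 FPKM in control and 7.51 to 12.7 in DSS libraries.

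Nr1d2 encodes REV-ERBβ, the paralogue that overlaps with REV-ERBα in function, and lies on chromosome 14 (mm10, 18204054 to 18239127, minus strand). It measured 31.2, 27.2 and 22.96 FPKM in control replicates 1, 2 and 3 and 16.99, 18.4 and 19.98 in DSS replicates 1, 2 and 3. Again the groups were separate, although the lowest control and the highest DSS library were close. The log2 change was −0.52 ± 0.20 SE (95% interval −0.98 to −0.07, limma adjusted p = 0.456), and −0.47 ± 0.16 SE without DSS replicate 1 (limma adjusted p = 0.167). In contrast to Nr1d1, its DSS libraries were close to one another.

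Stretches just before the annotated starts of 4 clock genes are shown, because CLOCK and BMAL1, the RORs with the REV-ERBs, and the PAR bZIP factors are known to act on this gene family through the short motifs they can hold. They come from RefSeq (GRCm38.p6, the same coordinates as mm10), read 5′ to 3′ on the gene's own strand, and end before the first base of any GENCODE transcript. Nr1d1 (chr11:98775378-98775627) and Nr1d2 (chr14:18239128-18239356) are the REV-ERB genes, Ciart (chr3:95882252-95882478) is among the genes whose groups overlapped, and Per3 (chr4:151044666-151044915) had the largest value upward. No rule set beforehand which 4 were shown, so the motif shares given below describe these stretches only. All 4 are on the minus strand. Capitals mark any match to the E-box CACGTG, the E′-box CACGTT, the RORE core AGGTCA, the D-box TTATGTAA or the cAMP element TGACGTCA, on either strand.
Nr1d1: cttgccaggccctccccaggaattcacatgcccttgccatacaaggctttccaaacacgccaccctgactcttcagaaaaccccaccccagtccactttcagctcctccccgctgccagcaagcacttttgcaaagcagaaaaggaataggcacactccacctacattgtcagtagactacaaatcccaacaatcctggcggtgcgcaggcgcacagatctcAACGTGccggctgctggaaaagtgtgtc
Nr1d2: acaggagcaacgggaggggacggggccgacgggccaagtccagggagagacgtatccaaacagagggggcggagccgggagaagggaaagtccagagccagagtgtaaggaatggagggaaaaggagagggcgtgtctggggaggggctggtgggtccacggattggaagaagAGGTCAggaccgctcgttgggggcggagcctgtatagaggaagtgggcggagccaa
Ciart: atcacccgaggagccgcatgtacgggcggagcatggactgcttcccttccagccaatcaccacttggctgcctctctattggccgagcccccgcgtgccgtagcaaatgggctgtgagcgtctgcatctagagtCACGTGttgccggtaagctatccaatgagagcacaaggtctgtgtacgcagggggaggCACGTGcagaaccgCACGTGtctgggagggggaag
Per3: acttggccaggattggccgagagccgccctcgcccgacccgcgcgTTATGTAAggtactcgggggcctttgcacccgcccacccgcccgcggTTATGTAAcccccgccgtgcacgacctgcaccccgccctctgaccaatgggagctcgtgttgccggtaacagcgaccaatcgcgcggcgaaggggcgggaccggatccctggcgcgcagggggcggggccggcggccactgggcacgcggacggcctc

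The stretches differ in what they hold. Ciart has 3 E-boxes, against 0.0609% of the 32851 RefSeq promoters with as many in their 250 bases, and 6.02% with at least 1. Per3 has 2 D-boxes, against 0.0183% with as many and 0.819% with at least 1. Nr1d1 has 1 E′-box, read on the other strand as AACGTG (3.85% of promoters). Nr1d2 has 1 RORE core (14.02%). None of the 4 holds the cAMP element (1.55%). Promoter entries were found for 9 of the 10 genes, 13 in all, and Per2 had none. In the 250 bases before the start, 8 of those 9 genes had at least 1 of the 5 motifs in at least 1 entry, as did 26.9% of all genes with an entry. These were E-boxes in Cry1 and Per1 besides Ciart, an E′-box in Cry1 and Cry2 besides Nr1d1, and a RORE core in Clock and Per1 besides Nr1d2. Neither Arntl entry had a match there, though a RORE core begins 31 bases after its second start. A match is a description of these letters and says nothing of binding in these cells.

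The activators followed different courses. Arntl encodes BMAL1, the partner without which the loop does not run. It lies on chromosome 7 (mm10, 113207465 to 113314126, plus strand). Arntl measured 24.6, 25.98 and 27.2 FPKM in control replicates 1, 2 and 3 and 12.1, 20.9 and 22.4 in DSS replicates 1, 2 and 3. The groups did not overlap, but DSS replicates 2 and 3 came close to the controls and only replicate 1 was far below. The log2 change was −0.51 ± 0.25 SE (95% interval −1.08 to 0.05, limma adjusted p = 0.611). Without DSS replicate 1 it shrank to −0.25 ± 0.14 SE (limma adjusted p = 0.435).

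Clock lies on chromosome 5. The gene, whose protein is a histone acetyltransferase and the DNA-binding partner of BMAL1, measured 2.24, 2.42 and 2.32 FPKM in control replicates 1, 2 and 3. It measured 2.75, 2.12 and 3.90 in the DSS libraries in the same order. The DSS libraries lay on both sides of the controls, and the log2 change was 0.21 ± 0.30 SE (95% interval −0.47 to 0.90, limma adjusted p = 0.891). It was 0.0415 without DSS replicate 3 and 0.0190 with library weights. Within each library Arntl was 10.7 to 11.7 times Clock in the controls and 4.38, 9.86 and 5.74 times Clock in DSS replicates 1, 2 and 3. This ratio does not depend on library scaling, and its groups did not overlap. Npas2, a paralogue that can stand in for Clock, was above Clock in every control library, with 3.46 ± 0.841 FPKM in control and 3.46 ± 0.400 in DSS (log2 change 0.01, limma adjusted p = 0.994).

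The repressors lie on chromosomes 11 (Per1), 1 (Per2), 4 (Per3), 10 (Cry1), 2 (Cry2) and 3 (Ciart). Among them Per1 was the most abundant. PER1 is a scaffold of the complex that blocks CLOCK and BMAL1, and its gene is also known as an immediate-early gene. Per1 measured 89.8, 100.4 and 104.2 FPKM in control replicates 1, 2 and 3, and 37.9, 103.96 and 107.5 in DSS replicates 1, 2 and 3. DSS replicates 2 and 3 were thus at or just above the control level, and replicate 1 was far below it. The fitted log2 change of −0.38 ± 0.36 SE (95% interval −1.19 to 0.43, limma adjusted p = 0.834) turned to 0.11 ± 0.12 SE without DSS replicate 1 (limma adjusted p = 0.720). Nr1d1, by contrast, was low in DSS replicates 2 and 3 as well. Per1 was accordingly 0.929, 0.837 and 1.08 times Nr1d1 in control replicates 1, 2 and 3, and 1.33, 1.64 and 1.81 times Nr1d1 in DSS replicates 1, 2 and 3. This ratio too had no overlap between the groups. Of the other ratios taken, Arntl and Per3 over Nr1d1 were also separate. Nr1d1 over Nr1d2, Cry1 over Cry2, Arntl over Per1 and Per3 over Per1 overlapped. Each separate ratio holds Nr1d1 or Arntl, whose own groups were separate, and how often other gene pairs separate was not counted.

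Per2, the paralogue whose loss shortens the rhythm, was the least abundant clock gene. It measured 1.83, 1.82 and 1.99 FPKM in control replicates 1, 2 and 3 and 0.709, 1.27 and 3.02 in DSS replicates 1, 2 and 3. The DSS libraries spread to both sides of tight controls, on 62 to 178 fragments each, and the fitted change was −0.20 ± 0.42 SE (95% interval −1.14 to 0.73, limma adjusted p = 0.924). Per3, which is not needed for the rhythm itself, measured 3.67, 2.58 and 4.46 FPKM in the controls in that order and 5.77, 3.87 and 7.48 in DSS. It had the largest value upward of the 10, at 0.54 ± 0.29 SE (95% interval −0.12 to 1.20, limma adjusted p = 0.655), and the groups overlapped through DSS replicate 2. Between libraries of the same number, which the labels do not pair, Per3 was 1.57, 1.498 and 1.68 times as high in DSS for replicates 1, 2 and 3. By the same ratio Nr1d1, Nr1d2 and Arntl were lower in DSS for every number, and the remaining core genes went both ways. With the replicate number as a block the limma adjusted p of Per3 was 0.390. Its value was positive in all 16 alternatives that gave one, from 0.31 to 0.75, and passed in none.

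The cryptochromes, the strongest repressors of the loop, showed no separation. Cry1 measured 7.45, 5.59 and 7.06 FPKM in control replicates 1, 2 and 3, and 4.72, 7.71 and 5.60 in DSS replicates 1, 2 and 3 (log2 change −0.15, 95% interval −0.70 to 0.40, limma adjusted p = 0.907). Without DSS replicate 1 its change was −0.0146, and without DSS replicate 2 it was −0.32. Cry2 measured 4.78, 4.25 and 7.12 in the controls and 2.30, 5.08 and 7.77 in DSS, in the same order (log2 change −0.16, 95% interval −0.98 to 0.66, limma adjusted p = 0.933). For Cry2 both replicates 3 were the highest of their groups, and DSS replicate 1 was the lowest library. Cry2 shares 295 exonic bp with D930015M05Rik on the other strand, which measured 0.168 to 3.41 FPKM and was also lowest in DSS replicate 1 and highest in DSS replicate 3. Ciart, also called CHRONO, recruits a histone deacetylase to the CLOCK and BMAL1 complex. It was the steadiest of the 10, at 17.2, 16.4 and 16.7 FPKM in control replicates 1, 2 and 3 and 14.7, 15.2 and 18.8 in DSS replicates 1, 2 and 3. Its log2 change was −0.05 ± 0.20 SE (95% interval −0.50 to 0.39, limma adjusted p = 0.963).

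The 3 DSS libraries did not carry 1 common pattern. In DSS replicate 1, 8 clock genes lay below every control library and Clock and Per3 above, against 43.5% and 25.8% of all tested genes. In DSS replicate 2, 6 lay below and only Cry1 above (30.4% and 24.2% of tested genes). In DSS replicate 3, 3 lay below and 6 above, near the shares of all tested genes (23.0% and 50.7%). Arntl, Nr1d1 and Nr1d2 were the genes below in each. Nr1d1 lay 1.83, 0.70 and 0.79 below its control mean on the log2 scale in DSS replicates 1, 2 and 3. On the same scale the median difference over all tested genes was −0.17, −0.05 and 0.25 in that order. A low DSS replicate 1 and a high DSS replicate 3 were thus not particular to the clock genes.

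**Figure D2:**
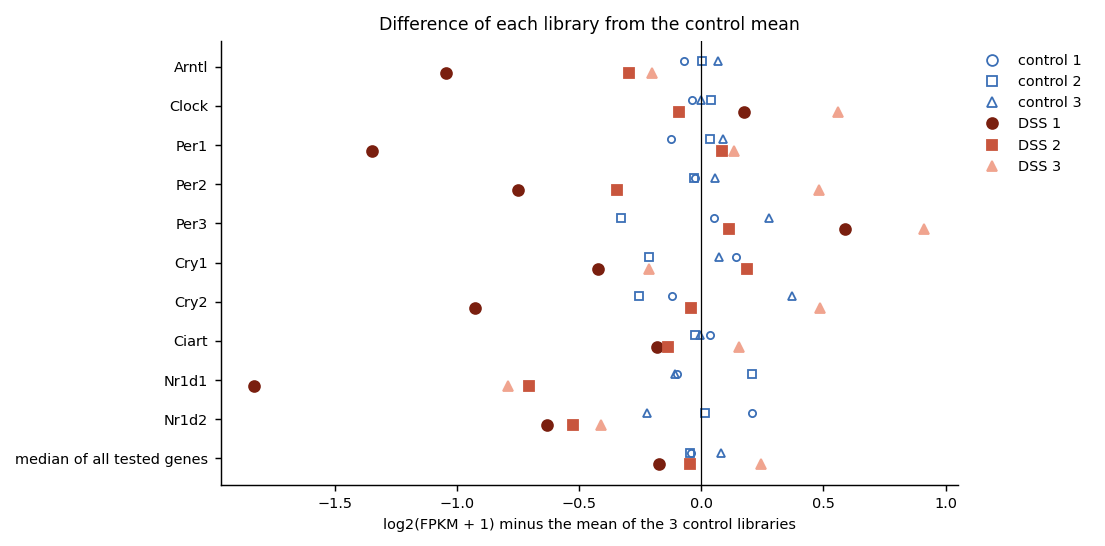
Horizontal axis: log2(FPKM + 1) of each library minus the mean of the 3 control libraries, by gene, with the median of all 12187 tested genes in the bottom row; open symbols are control and filled symbols DSS libraries. Nr1d1 and Nr1d2 lie left of the controls in all 3 DSS libraries, while Per1 does so in DSS replicate 1 alone.

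The arms of the loop were then compared within each library, each as the mean of log2(FPKM + 1) over its genes. These scores are a description without a test, since their genes were chosen. The activator arm averaged 3.24 ± 0.0472 in control and 3.09 ± 0.309 in DSS libraries (SD, n = 3), and the repressor arm 3.34 ± 0.140 and 3.28 ± 0.418. Activators minus repressors gave −0.15, 0.06 and −0.21 in control replicates 1, 2 and 3. The DSS libraries gave −0.03, −0.27 and −0.25 in the same order. Among the DSS libraries both arms were lowest in replicate 1 and highest in replicate 3, as was the median of all tested genes. The difference between these arms overlapped between the groups. The REV-ERB arm differed from both, with 5.76 ± 0.145 in control and 4.94 ± 0.360 in DSS. Activators minus REV-ERBs gave −2.62, −2.60 and −2.32 in control replicates 1, 2 and 3 and −1.72, −2.09 and −1.73 in DSS replicates 1, 2 and 3. All 3 DSS libraries were above all 3 controls, with a difference of 0.67 between the group means, or 0.60 without DSS replicate 1. Repressors minus REV-ERBs were also separate, at −2.41 ± 0.283 and −1.67 ± 0.169. The REV-ERB arm holds only Nr1d1 and Nr1d2, whose groups were each separate, so these separations are not further results. How often arms made of other genes separate was not counted.

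**Figure D3:**
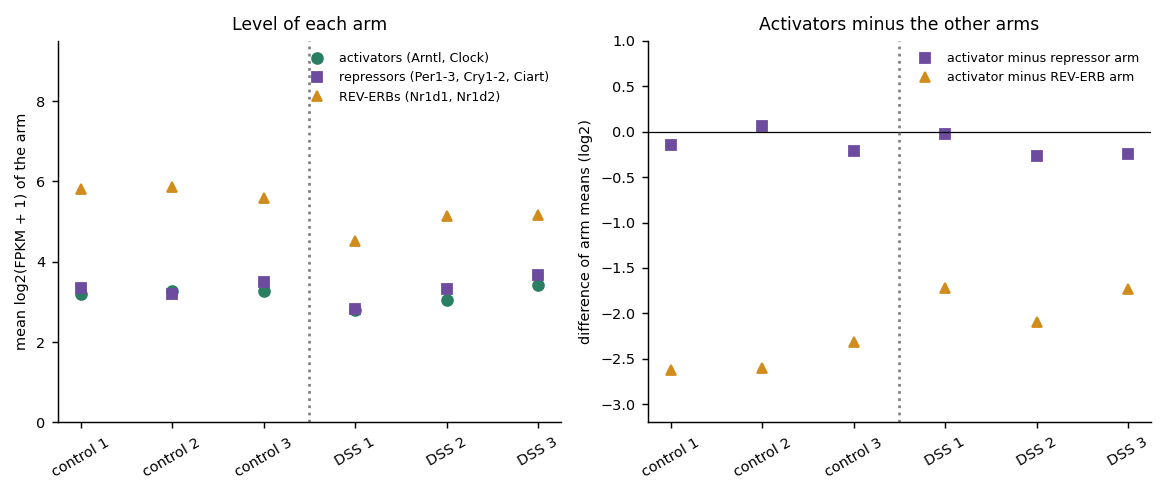
Left, mean log2(FPKM + 1) of the activator, repressor and REV-ERB arms in each library; right, the activator arm minus each of the others. The activator minus repressor values of the groups overlap, and the activator minus REV-ERB values are −2.62 to −2.32 in control and −2.09 to −1.72 in DSS libraries.

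DSS replicate 1 set the size of several fitted changes. Without it, the separate groups were still those of the same 3 genes, Arntl, Nr1d1 and Nr1d2 (14.6% of tested genes had this pattern there). Per1, Per2, Cry2 and Ciart turned from below to above 0, to values of 0.01 to 0.22. Without DSS replicate 3, 5 core genes lay below every control, where 19.9% of tested genes did, and without both replicates 3 the count was again 5, where 23.1% did.

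**Figure D4:**
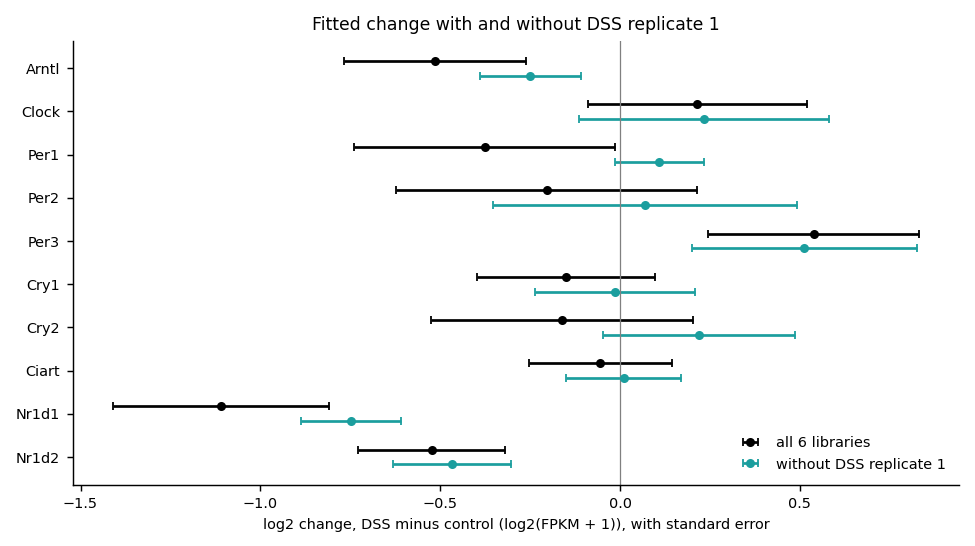
Fitted log2 change of each clock gene, DSS minus control, with its standard error, from all 6 libraries (black) and without DSS replicate 1 (teal). Nr1d1 moves from −1.11 to −0.75 and its error from 0.30 to 0.14, while Per1 moves from −0.38 to 0.11.

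Beyond the core loop, 50 other clock genes were listed as partners and modifiers, output factors and clock-controlled outputs, and 45 passed the filter. By limma 0 of the 45 passed in either direction over all genes, 11 had an unadjusted p under 0.05 (8.99% of all tested genes did), and 30 had a change below 0 (46.9%), with a median of −0.08 against 0.03. In 13 every DSS library lay below every control library (9.60% of all tested genes), and in 1, Tsc22d3, every one lay above (6.35%). Of 32 partners and modifiers, 9 were among the 13. Rora, the ROR receptor that opposes the REV-ERBs at Arntl and is itself needed for ILC2s, measured 154 ± 16.7 FPKM in control and 78.3 ± 15.9 in DSS (log2 change −0.98, limma adjusted p = 0.140). Bhlhe40, a repressor that competes at E-boxes, measured 1720 ± 132 and 928 ± 315 (log2 change −0.95, limma adjusted p = 0.304). Its paralogue Bhlhe41 stayed under the filter, at 0.501 ± 0.277 and 0.314 ± 0.158.

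The PAR bZIP and related output factors had a median change of −0.62 over 4 genes, against 0.03 over all tested genes. All 4 were below 0, as were 46.9% of tested genes. Nfil3, a repressor at D-boxes that REV-ERBα is known to repress, measured 255 ± 3.46 and 114 ± 19.3 FPKM (limma adjusted p = 0.0743), and the D-box activator Hlf 24.9 ± 1.80 and 12.6 ± 1.88 (0.134). Dbp, the E-box target often used as a readout of the loop, measured 7.27 ± 0.340 and 6.05 ± 0.644, and Tef 6.40 ± 0.832 and 5.72 ± 3.35. For Tef only DSS replicate 1 lay below the controls, at 1.89 FPKM. DSS replicates 2 and 3 measured 7.18 and 8.10, against 5.55 to 7.21 in control. Of 9 clock-controlled outputs tested, only 3 were below 0, against 46.9% of tested genes, and their median change was above 0, at 0.16. Lowest of the 3 was Lgals1, the galectin-1 gene, with 277 ± 60.2 and 119 ± 63.4 FPKM (limma adjusted p = 0.201).

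These counts also turned on DSS replicate 1. Without it, 7 of the 45 passed limma's threshold, against the 3.39% of tested genes given above. With library weights 8 did, in a fit where 635 of the 12187 tested genes passed. The 5 that fell without DSS replicate 1 were Nfil3 (log2 change −1.08, limma adjusted p = 2.30e-03), Lgals1 (−1.73, 1.60e-03), Rora (−0.82, 9.51e-03), Hlf (−0.84, 0.0150) and Bhlhe40 (−0.63, 0.0385). The other 2 rose, Fkbp5 (0.90, 6.01e-03) and Tsc22d3 (0.52, 0.0444), both from the list of clock-controlled outputs. With voom on recovered fragments, 0 of the 45 passed.

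The genes most like Nr1d1 over the 6 libraries, by the smallest root-mean-square difference of centred log2(FPKM + 1) among 6577 genes, were Cnnm2 (0.0922), Igsf8 (0.0981), Vps37b (0.104), Baiap2 (0.113) and Map2k3 (0.118). Those most like Arntl were Ski (0.0425), Polr2m (0.0451), Synj2 (0.0508), Cyb5r3 (0.0521) and Pgam5 (0.0567). Each was lower in DSS replicate 1 than in any other library, as Nr1d1 and Arntl were, and with 6 libraries such closeness is a description only.

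Markers of other cells differed between the groups in the same libraries. The 8 neutrophil markers summed to 2.87 to 7.61 FPKM in control and 67.2 to 105.8 in DSS libraries, and 7 of 8 had a higher mean in DSS. S100a8, S100a9 and Retnlg were above the controls in every DSS library, while Csf3r, Cxcr2, Mpo and Elane exceeded every control in DSS replicate 3 alone, and the defining gene Ly6g was at 0 in DSS replicates 1 and 2. The 8 epithelial markers summed to 18.9 to 35.0 and 47.2 to 50.1, with 7 of 8 higher. The 8 macrophage and dendritic markers summed to 10.2 to 14.6 and 14.8 to 28.7. The T cell, ILC3, B cell and stromal sums overlapped between the groups, but DSS replicate 1 was at the end of each. Its T cell sum was 56.7 FPKM against 21.3 to 30.2 in the other libraries, and its B cell sum 25.9 against 10.7 to 17.2. The ILC3 sum there was 310 against 70.6 to 284, and the stromal sum 10.3 against 15.1 to 32.9. The part of these other cells in the values of the clock genes was not tested. In bulk RNA fewer cells of a type and less RNA per cell cannot be told apart.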

How the data were processed

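RNA was sequenced from sorted colonic ILC2s in 3 control and 3 DSS libraries, grouped by their titles. Per the labels' protocols, a SMART-Seq HT kit made the cDNA and paired-end libraries came from a Nextera XT kit, whose reads keep no strand. Per the submitters' processing notes, cutadapt 1.9, HISAT2 2.2.1 and the build mm10 were used; no source used here names the counting tool or annotation. Deposited by the authors were FPKM values for 23268 genes.

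The rule for the core clock genes uses symbols only, but they and the other lists were chosen with earlier results of these data known. Genes whose mean reached 1 FPKM were tested in limma 3.58.1 under R 4.3.3. A linear model of log2(FPKM + 1) was moderated by eBayes with its trend option, two-sided, with Benjamini-Hochberg adjustment over all genes and a threshold of 0.05. The fit was also run on simulated counts with the same spread in every library, which does not test how it handles a library that stands apart. Whole fragments were recovered from the FPKM steps for 21991 of 21991 genes above 0 in at least 2 libraries (tolerance 0.001). They gave the depths and the voom alternative. Libraries of a group differed by far more than sampling noise. Deviations of same-numbered libraries correlated across genes, at 0.189, 0.262 and 0.545 for replicates 1, 2 and 3. So did those of control replicate 1 with DSS replicate 2 (0.345) and control replicate 2 with DSS replicate 1 (0.101). Replicates 1 and 2 thus did not clearly pair by number. The labels do not pair the libraries, so the main fit was unpaired. The replicate number entered as a block in an alternative only. Coordinates are from GENCODE M21, 1-based, and promoters from RefSeq. Named genes were all core clock genes; of the others the output factors, Npas2, Rora, the Bhlhe genes and the 4 with the smallest p; and the 5 genes nearest to Nr1d1 and Arntl with a mean FPKM of at least 5, without predicted genes and pseudogenes. Tsc22d3 and Fkbp5 were named after their values were seen, and 1 gene that the rule names is not reported here. Plots used matplotlib 3.10.9.

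Alternatives were pseudocounts of 0.1 and 5, no filter and a filter at 5, median-of-ratios, quantile and equal-total scaling, the replicate block, voom, library weights by the gene-by-gene method, leaving out each library, summed arms, and arms without Ciart. Leaving out both replicates 3 was added after the data were seen.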

Additional observations from a re-analysis of the deposited data

How the results depend on the processing

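Nr1d1, Nr1d2 and Arntl kept values below 0, and Per3 and Clock above 0, in every alternative that gave one; Clock, Per2 and Per3 gave none at a mean FPKM of at least 5. When 1 library was left out, Per1 ran from −0.63 (without DSS replicate 3) to 0.11 (without DSS replicate 1), Per2 from −0.55 to 0.0699, Cry2 from −0.49 to 0.22 and Ciart from −0.159 to 0.00974, between the same libraries, and Cry2 without control replicate 3 was 0.02. Cry1 (0.12) and Cry2 (0.0585) with library weights, and Ciart after quantile normalization (0.0457), were above 0. The core clock genes that passed numbered 0, or 1 (Nr1d1) with library weights and without DSS replicate 1, so 0 to 1 when 1 library was left out. Those below 0 numbered 4 to 8 when 1 library was left out, against 8. Those below every control library numbered 3 to 5 when 1 library was left out and 5 without both replicates 3, against 3. Over all genes 27 passed (9 higher and 18 lower), 9 after median-of-ratios scaling (5 and 4), 14 with an equal total (6 and 8), 19 after quantile normalization (8 and 11), 635 with library weights, 5 without both replicates 3 and 4 to 413 when 1 library was left out. The replicate block gave 22 and changed no call of the 10 core or the 45 other clock genes (Nr1d1 limma adjusted p = 0.152). The activator minus repressor difference was −0.08 and ran from −0.17 to −0.002; the activator minus REV-ERB difference was 0.67 and ran from 0.54 to 0.79. The cause of these shifts was not tested. Depth limits Per2 most, with 62 fragments in DSS replicate 1.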
